A study of Homo sapiens with 2 samples.

Results

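The regions described here are clusters of distal sites in the siNEG library: stretches of the genome in which 3 or more called intervals lie close together and away from the ends of protein-coding genes. They come from TC32, an established Ewing sarcoma cell line, in which EWS-FLI binding was measured by CUT&Tag. In this assay an antibody carries a transposase to its target in the chromatin, and the DNA cut out there is sequenced; the labels do not name the antibody. There was 1 library from TC32 cells given siEWS-FLI and 1 from TC32 cells given siNEG, which the labels do not spell out and which is treated here as the comparison arm. No difference below therefore has a replicate check, and no p-value is given. The siNEG list held 16274 intervals on chromosomes 1 to 22 and X. Intervals whose strongest summit lay within 1 kb of either end of a protein-coding gene were dropped, which left 10389 distal intervals. Distal intervals were joined into a chain where the gap between neighbours was 12500 bases or less, and chains of 3 or more were kept. This gave 171 chains with 553 members, and 9836 distal intervals stayed outside chains. Members were chosen by the positions of siNEG intervals, so their number and spacing are descriptions, and the rule takes no value from the siEWS-FLI list.

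EWS-FLI fuses the transactivating part of EWSR1 to the DNA-binding ETS domain of FLI1. It binds single ETS sites, whose core is GGAA, and arrays of repeated GGAA, and it is known for opening distal chromatin in Ewing sarcoma. Dense groups of distal sites are the usual raw material for calling super-enhancers, which are large enhancer domains near genes of cell identity. Distal by the rule used here means only far from a protein-coding gene end. Genes for tRNAs, small nuclear RNAs and long non-coding RNAs, pseudogenes and satellite regions remain. So do starts of protein-coding genes that lie inside the gene's extent.

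The strongest member and a member of the second-ranked chain had their summits in promoter windows of long non-coding RNAs, and the strongest member of the SIN3A chain lay at a start inside that gene's extent. The windows below run from 250 bases before to 50 bases after a start, 5′ to 3′ on the gene's strand, from RefSeq on GRCh38.p14, with every GGAA or its complement TTCC in capitals. The window of GP6-AS1, under a member of only 4 reads, is added because it held the most copies of GGAA of all windows with a member's summit. The 4 are shown so that pileups of different size stand beside the letters under them.
MIATNB, chr22:26672593-26672892, plus strand: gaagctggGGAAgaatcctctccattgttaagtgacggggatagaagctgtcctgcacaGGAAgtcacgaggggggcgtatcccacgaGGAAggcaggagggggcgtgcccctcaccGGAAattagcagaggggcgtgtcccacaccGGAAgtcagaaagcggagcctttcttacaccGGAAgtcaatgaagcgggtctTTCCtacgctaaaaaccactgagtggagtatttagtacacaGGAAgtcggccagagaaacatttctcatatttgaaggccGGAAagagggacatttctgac
SIN3A, chr15:75451641-75451940, minus strand: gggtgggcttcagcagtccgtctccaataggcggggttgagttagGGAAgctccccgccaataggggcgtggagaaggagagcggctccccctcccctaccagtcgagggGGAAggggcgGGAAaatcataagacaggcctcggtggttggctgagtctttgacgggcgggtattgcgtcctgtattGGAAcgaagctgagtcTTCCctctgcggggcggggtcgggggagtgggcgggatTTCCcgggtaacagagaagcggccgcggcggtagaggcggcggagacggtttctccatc
LOC105370680, chr14:102524570-102524869, plus strand: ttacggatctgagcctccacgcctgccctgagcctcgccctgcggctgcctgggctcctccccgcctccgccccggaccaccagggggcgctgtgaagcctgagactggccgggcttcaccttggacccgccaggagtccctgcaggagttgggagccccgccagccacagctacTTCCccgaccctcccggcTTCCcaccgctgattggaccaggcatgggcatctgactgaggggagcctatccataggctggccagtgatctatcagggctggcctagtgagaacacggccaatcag
GP6-AS1, chr19:55005977-55006276, plus strand: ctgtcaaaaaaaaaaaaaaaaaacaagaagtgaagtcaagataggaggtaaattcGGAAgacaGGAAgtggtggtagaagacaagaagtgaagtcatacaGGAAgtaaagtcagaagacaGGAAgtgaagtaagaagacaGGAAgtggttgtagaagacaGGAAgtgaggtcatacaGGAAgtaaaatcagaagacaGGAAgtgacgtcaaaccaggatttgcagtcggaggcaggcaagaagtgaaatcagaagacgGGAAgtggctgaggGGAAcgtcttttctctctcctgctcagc

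The GP6-AS1 window held 10 copies of GGAA on the 2 strands together, the MIATNB window 9, the SIN3A window 6 and the LOC105370680 window 2, against a median of 3 over all 34961 RefSeq windows of the same length. As many as 9 occurred in 1.64% of those windows. The longer word GGAAGT, chosen after the sequences were seen and counted on both strands, occurred 4 times in the MIATNB window and 8 times in the GP6-AS1 window; it was present in 6 of the 17 windows with a member's summit, beside 22.8% of all windows. The pileups at these members went from 476 reads at MIATNB, 127 at SIN3A and 30 at LOC105370680 to 4 (1.09 to 10.2) at GP6-AS1, a window chosen for its copies. The GP6-AS1 member was called with siEWS-FLI, with 8 reads (3.45 to 15.8). In all, 25 windows touched a member and 17 of them held a member's summit. Among the 17 were windows of the protein-coding genes SIN3A, TEDC1, RAD52, DLGAP4, INKA2, TPM4 and PREX1. The TEDC1 member had 93 siNEG reads and its window 3 copies of GGAA, and the RAD52 member had 27 reads and its window 9 copies. At TRIM7-AS2, also among the 17, there were 75 reads and 6 copies. Over these windows the copies did not rise steadily with the reads. The median over the 17 windows was 4 copies. The word CCGGAAG, on either strand, was present in 3 of the 17, beside 10.3% of all windows, and GGAAGGAA in 0 of the 17, beside 3.67%. CCGGAAG contains GGAA, and GGAAGGAA holds it 2 times, so these counts overlap. Most members touch no such window, and no genome sequence was used here for them.

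The other short sequences that recurred under members were tRNA genes. These are short genes read by RNA polymerase III from promoter elements inside the transcribed part, and in the human genome many of them lie in groups. A pair of them fell inside promoter windows of neighbouring long non-coding RNAs and could be read from there, 5′ to 3′ in a reading that holds the anticodon, which is in capitals.
TRT-TGT6-1, a threonine tRNA gene, chr5:181191687-181191758: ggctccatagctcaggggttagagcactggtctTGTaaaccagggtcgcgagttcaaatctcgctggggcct
TRL-AAG2-2, a leucine tRNA gene, chr6:28943622-28943703: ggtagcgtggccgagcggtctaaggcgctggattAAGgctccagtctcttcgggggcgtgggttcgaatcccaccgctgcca
A common form of the internal B box, searched on both strands, stood at bases 61 to 71 of the leucine gene as written. Of all promoter windows 0.0829% hold it. Read from the other strand, the leucine gene also holds AAG, at bases 33 to 35, so the anticodon alone does not fix its strand. The reading printed is the one with the B box. The first of these genes lies under a member of 75 siNEG reads in the chain beside TRIM7, and the second under a member of 17 reads in a chain on the short arm of chromosome 6.

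Values below are summit pileups, that is, counts of extended reads that cover a summit, solved from the deposited fold enrichment and −log10 p-value. They are raw, are not scaled between libraries and are given in order along the chromosome. Bracketed ranges after a pileup are exact 95% Poisson intervals and those after a share are 95% Wilson binomial intervals; both cover counting error only, and PCR copies are not independent molecules. Background coverage over the whole genome came to 0.348 reads for siNEG and 0.239 for siEWS-FLI. Estimated read totals that leave out a mitochondrial window of 10 kb, for an assumed mappable genome of 2700000000 bases, gave 0.562 siEWS-FLI reads per siNEG read. A member counts as called with siEWS-FLI when a siEWS-FLI interval overlaps it by at least 1 base. A member that was not called lies under the caller's threshold there and is not shown to be empty.

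Most chains were short and thinly filled. There were 142 chains of 3 members, 22 of 4, 4 of 5, 2 of 6 and 1 of 7. The span ran from 1.07 to 34.3 kb with a median of 14.0 kb, of which called intervals covered a median of 7.45%. Within a chain the strongest member held a median of 45% of the summed pileup, from 19% to 95%; by construction it holds at least an even share. Members had a median pileup of 10 reads (quartiles 7 and 18) and a median width of 290 bases, against 7 reads (5 and 11) and 246 bases for distal intervals outside chains. The narrowest width, 200 bases, was that of 30.2% of members (26.5 to 34.2) and 41.8% of the others (40.8 to 42.8). The local background under the summit, which the caller takes from the surrounding reads, was higher at members, at a median of 0.840 against 0.4 reads. The gap limit decided membership at close margins: the largest gap inside a chain was 12448 bases, and 3 intervals on chromosome 8 missed the rule with a gap of 12520 bases, between summits of 6 reads each. The member nearest to a gene end, of 15 reads near SH3GL1, lay 1008 bases away, and the farthest dropped interval, of 5 reads, lay 998 bases away.

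Chains were not spread evenly over the distal intervals of the chromosomes. On chromosome 17 10.1% of distal intervals were members, on chromosome 16 9.70%, on chromosome 19 9.19% and on chromosome 8 7.83%, against 1.82% on chromosome 4 and 3.05% on chromosome 3. Of the 553 members 43.9% (39.9 to 48.1) had their summit inside a protein-coding gene, against 50.2% (49.2 to 51.2) of distal intervals outside chains. A host gene held at least 1 summit in 87 chains, and in 59 all summits lay in 1 gene. Members lay over a tRNA gene in 27 cases, 4.88% (3.38 to 7.01), against 0.6% (0.465 to 0.773) outside chains. They lay over a mitochondrial pseudogene, a copy of mitochondrial DNA inserted in a chromosome, in 11 cases, 1.99% (1.11 to 3.53) against 0.336% (0.239 to 0.471). The rule selects grouped intervals, and tRNA genes and pieces of 1 insertion are themselves grouped. Small nuclear RNA genes overlapped 4 members, 0.723%, and 0.142% of the others. Long non-coding RNA genes overlapped 18.4% of members and 17.5% of the others.

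Few members were called with siEWS-FLI. There were 79 called of 553, 14.3% (11.6 to 17.4), beside 15.6% of all siNEG intervals and 8.12% of distal intervals outside chains. In 119 of 171 chains (69.6%, 62.3 to 76.0) no member was called, in 33 exactly 1 was, and in 5 every member was. The strongest member of a chain was called in 22.8% of chains (17.2 to 29.7) and the remaining members in 10.5% of cases (7.78 to 13.9). The share followed siNEG pileup. It was 2.63% (1.28 to 5.33) at 4 to 9 reads, 14.6% (10 to 20.9) at 10 to 19, 30.4% (22 to 40.5) at 20 to 49 and 64.5% (46.9 to 78.9) at 50 or more. Distal intervals outside chains stood at 2.42%, 12.7%, 27.9% and 63.7% in the same bands, each inside the members' interval. In 5 equal classes of −log10 q the members' share was higher in each class, by a mean of 4.63 percentage points (95% interval 2.03 to 7.23). In 10 classes of pileup the mean was 1.07 points (−1.14 to 3.28). The −log10 q classes were not alike in pileup. In the strongest class members had a median of 27 reads and the others 20, and in the weakest both had 4. Intervals of these differences treat members as independent, which neighbours in a chain may not be, and can be too narrow. Without the chains at tRNA genes, at mitochondrial pseudogenes and over 100 kb from a gene, described below, the mean over the −log10 q classes was 1.65 points (−1.07 to 4.38).

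**Figure D1:**
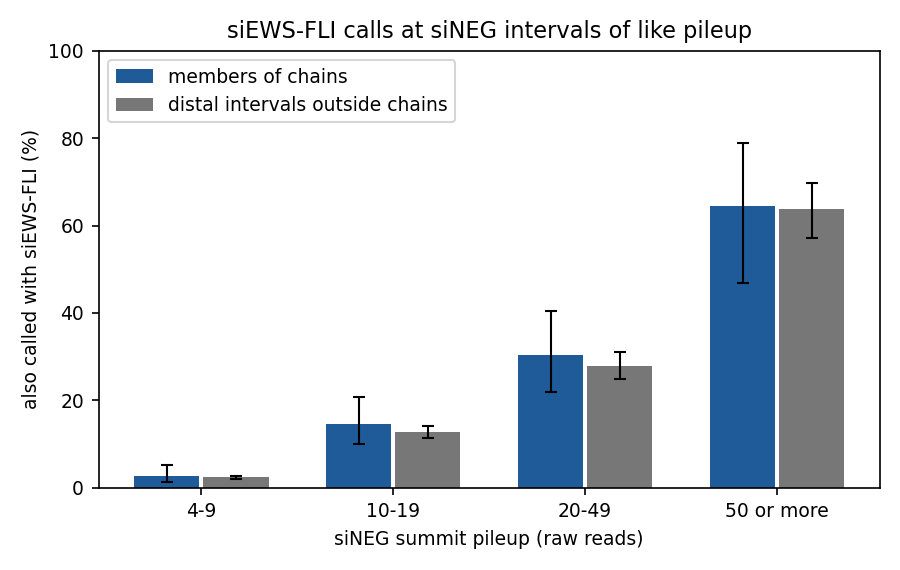
Percent of siNEG intervals also called with siEWS-FLI (vertical axis) in bands of siNEG summit pileup (horizontal axis), for members of chains (blue) and distal intervals outside chains (grey); bars are shares and error lines 95% Wilson intervals. The pairs of bars rise together, from 2.63% and 2.42% at 4 to 9 reads to 64.5% and 63.7% at 50 or more.

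Where a member was called, the siEWS-FLI pileup was lower in most cases, with a median ratio of 0.5, siEWS-FLI over siNEG, and a range from 0.0505 to 2.29. Against the read ratio of 0.562, 41 of the 79 lay at or under it and 38 over it, and 16 had a ratio of 1 or more. The 474 uncalled members have no ratio. No siEWS-FLI interval had under 4 reads, so low ratios are cut off, most of all at weak members. Ratios of called intervals, in chains and outside them, therefore lean upward and do not stand for all members. Called distal intervals outside chains had a median ratio of 0.403. The chains were then set apart by their surroundings, a division made after the values were seen. They are 12 chains with a member over a tRNA gene, 4 with a member over a mitochondrial pseudogene, 18 others more than 100 kb from any protein-coding gene, 85 others with a summit inside a protein-coding gene and 52 between genes. The median ratio was 0.391 at the 24 called members of chains inside genes and 0.385 at the 21 of chains between genes. Both lay just under the 0.403 outside chains.

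**Figure D2:**
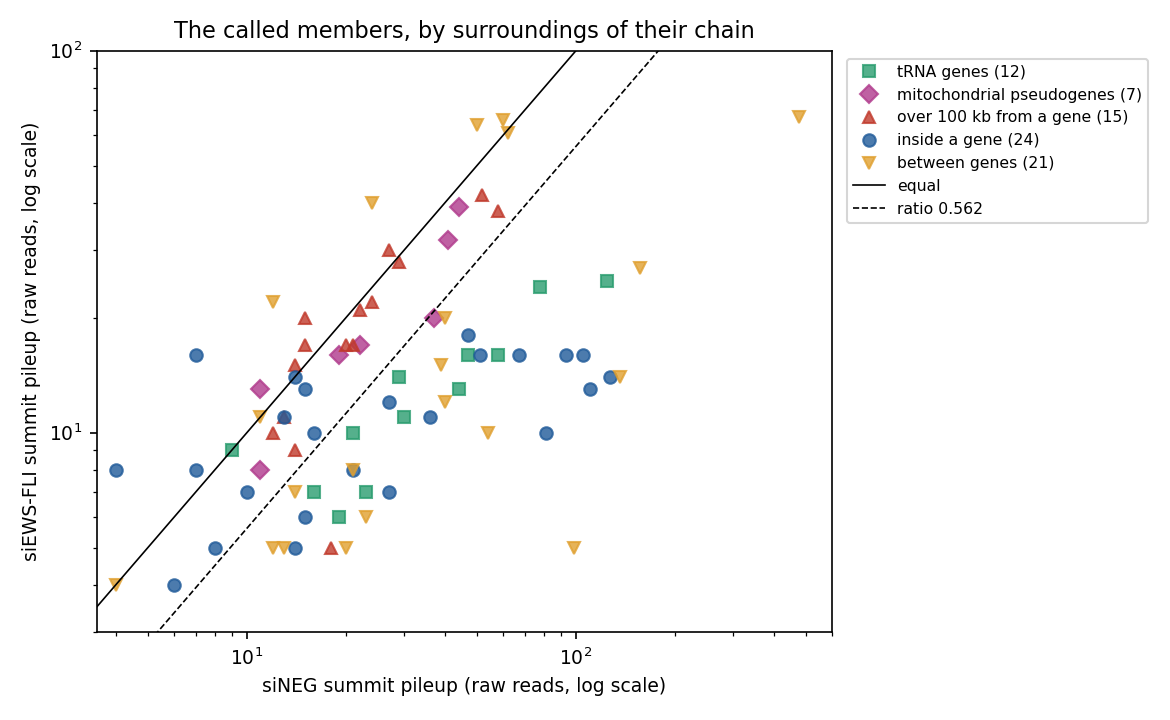
Summit pileup with siEWS-FLI (vertical, log scale) against siNEG (horizontal, log scale) for the 79 called members, with symbols by the surroundings of the chain; the solid line marks equal pileups and the dashed line the read ratio of 0.562. Members over 100 kb from a gene and at mitochondrial pseudogenes lie mostly between or above the lines (median ratios 0.850 and 0.780), and those at tRNA genes mostly under the dashed line (0.328).

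Chains inside genes were the largest group and the one with the lowest share of calls. Of their 273 members 24 were called, 8.79% (5.98 to 12.7), beside 7.84% of distal intervals inside genes but outside chains, and 65 of the 85 chains had no call. The sets are not alike: the 273 include members with a summit beyond the gene, and the 7.84% counts summits inside a gene only. The median pileup was 9 reads. PLEC, which encodes the cytoskeletal linker plectin, hosted 5 members of 10, 17, 15, 13 and 29 reads on chromosome 8 (143928440 to 143952939). PDE1C, a calmodulin-dependent phosphodiesterase gene, hosted 5 of 34, 6, 11, 23 and 12 reads on chromosome 7 (31875342 to 31890998). All 10 of these members were uncalled with siEWS-FLI. CIROZ hosted 3 weak members of 5, 8 and 9 reads on chromosome 1, and its chain went on beyond the gene with 64 reads (49.3 to 81.7) and 130 (109 to 154), none of them called. At the last of these, 20 siEWS-FLI reads or fewer could have gone uncalled, taking the siNEG local background. That bound is rough and often too high, since many members were called with fewer siEWS-FLI reads than it allows. At SIN3A, for example, 2 members with a bound of 29 reads were called with 14 and 16. A member near MACROH2A2 had a bound of 15 reads and was called with 5.

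Of the other 7 gene-hosted chains among the 20 first-ranked, 4 had no call. ZBTB16, which encodes the transcriptional repressor PLZF, hosted members of 5, 11, 28 and 7 reads, EXOC6B, of the exocyst, 20, 13, 6 and 4, and RERE, a corepressor gene, 7, 11, 11 and 11, all uncalled. The chain at TRMT9B, a gene related to tRNA methyltransferases, had 13, 42, 7 and 6 reads, with only the last inside the gene and none called. LTBP4, whose product binds latent TGF-beta, hosted 36, 16, 20 and 8 reads, and the first was called with 11. FAAP20, of the Fanconi anaemia core complex, hosted 8, 81, 35 and 21, of which the member of 81 reads (64.3 to 101) was called with 10 (4.8 to 18.4). ABR hosted 6, 7, 15 and 14 reads, and its last 2 members were called with 13 and 14. The ratio was thus 0.867 and 1 at the 2 ABR members and 0.123 at FAAP20.

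SIN3A, the scaffold of a histone deacetylase corepressor complex, hosted 3 strong members within 3.74 kb on chromosome 15 (75450724 to 75454467). The pileups were 67 (51.9 to 85.1), 127 (106 to 151) and 51 reads (38 to 67.1). With siEWS-FLI the first was not called, the second, at the start whose window is printed above, had 14 reads (7.65 to 23.5), and the third had 16 (9.15 to 26.0). SULF1, an extracellular heparan sulfatase gene on chromosome 8, held the strongest uncalled member, with 161 reads. By the same rough bound, as many as 18 siEWS-FLI reads could have gone uncalled at that place. Of 31 members with 50 or more reads, 11 were uncalled. Besides SULF1, SIN3A and the 2 of CIROZ, these lay in the chains of MATN1 (113 reads), SH2D1B (77), TRIM7 (75), VRK1 (72), ZNF395 (71), CDC42SE2 (54) and ITGB2 (52).

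**Figure D3:**
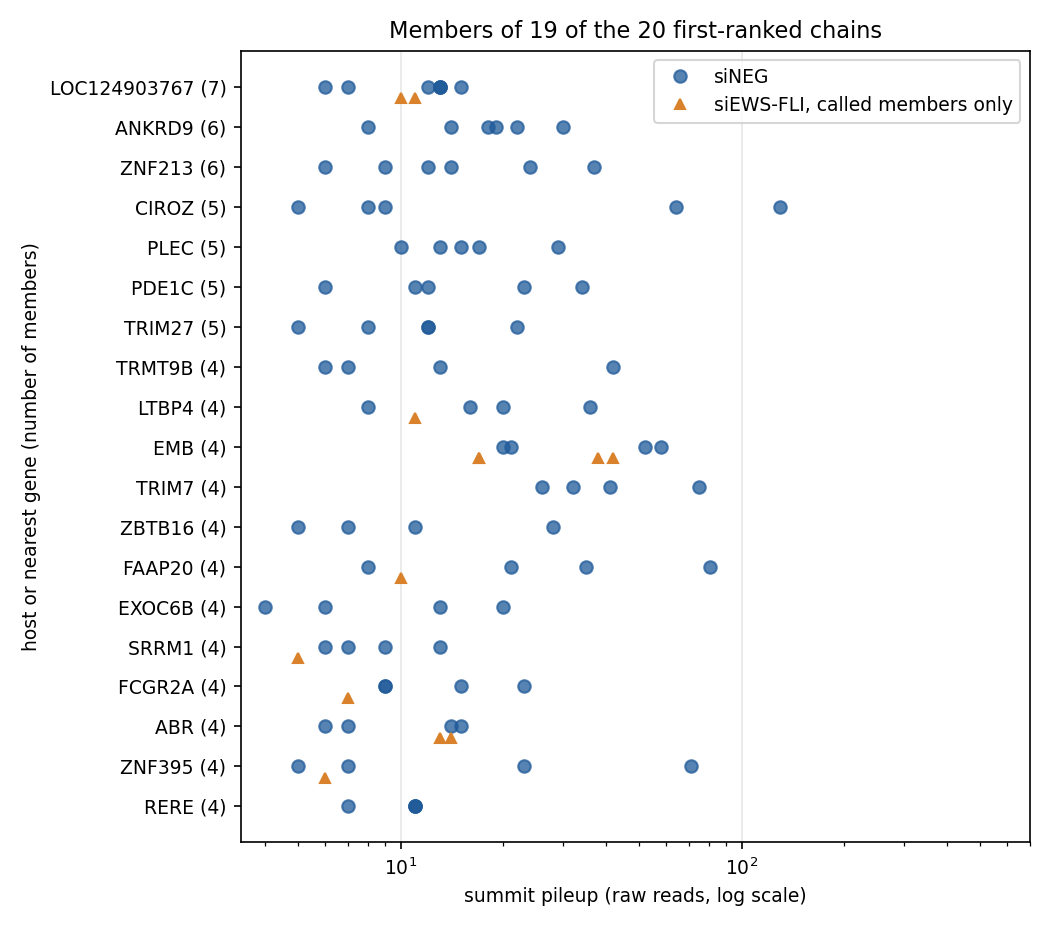
Summit pileup (horizontal, log scale) of every member of 19 of the 20 first-ranked chains, named by host or nearest gene with the number of members; circles are siNEG and triangles siEWS-FLI, drawn only for called members. Of the 19 chains drawn 11 have no triangle, and the EMB chain has one for each of its 4 members, 2 of them on top of each other at 17 reads.

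Chains between genes had 21 of 163 members called, 12.9% (8.58 to 18.9), beside 8.45% of distal intervals between genes outside chains. These sets were not matched for siNEG pileup, which the share of calls follows. The second-ranked chain of all lay 13.4 kb from ANKRD9 on chromosome 14 (102523180 to 102545569), with members of 22, 30, 19, 18, 14 and 8 reads; the first 4 lay in the non-coding RNA gene LOC105370680, and none was called. The chain with the most siNEG reads lay 28.1 kb from CRYBA4, a lens crystallin gene, on chromosome 22 (26658784 to 26673255), in the non-coding RNA gene MIAT. Its members had 13, 12 and 476 reads (434 to 521), so that 95% of the sum stood at the MIATNB start printed above. The last was called with 67 reads (51.9 to 85.1) and the others were not. The chain whose span takes in VAMP2, a synaptic vesicle SNARE gene on chromosome 17, had 39, 157 and 9 reads, and the first 2 were called with 15 and 27. The chain near ZNF395, a zinc finger gene, had 5, 23, 71 and 7 reads, and it was the member of 23, not that of 71, that was called, with 6 reads. The chain near SRRM1, a splicing coactivator gene, had 6, 9, 7 and 13 reads, and the last was called with 5. The lowest ratio of all, 0.0505, came from a member of 99 reads near MACROH2A2, a histone variant gene, called with 5.

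Chains at tRNA genes had a median pileup of 16 reads, and 12 of their 44 members were called, 27.3% (16.3 to 41.8). In these 12 chains 27 members lay over 33 tRNA genes; that is 7.45% of the 443 tRNA genes of chromosomes 1 to 22 and X, while 32.3% had a siNEG interval of any kind. Members over a tRNA gene had a median of 21 reads, from 6 to 78. Of these 27 members 10 were called (37.0%, 21.5 to 55.8), beside 52.5% of 59 distal intervals over tRNA genes outside chains, with median ratios of 0.328 and 0.393. The chain 7.67 kb from ZNF213 on chromosome 16 (3150474 to 3174491) had 37, 24 and 12 reads over 2 arginine and 1 lysine tRNA genes and 14, 9 and 6 beyond them. The chain on chromosome 6 (28781906 to 28803004), 100 kb from TRIM27, had 5, 12, 8, 22 and 12 reads, the last 4 over 3 alanine genes and 1 phenylalanine gene. The chain beside TRIM7 on chromosome 5 (181184138 to 181192066) had 26, 41, 32 and 75 reads. None of the 15 members of these 3 chains was called.

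Near HJV on chromosome 1, 3 members over glutamate, glycine and histidine genes had 20, 44 and 47 reads, of which the last 2 were called with 13 and 16. The chain that takes in BORCS6 on chromosome 17 had 78 and 24 reads at a member over 3 tRNA genes and MIR4521. The chain nearest to FCGR2A, an Fc receptor gene, had 23, 15, 9 and 9 reads, and the first, over an aspartate gene, was called with 7. Copies of a tRNA gene are near-identical, so reads that fit several copies may be placed on any of them, and the labels do not say how such reads were handled.

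**Figure D4:**
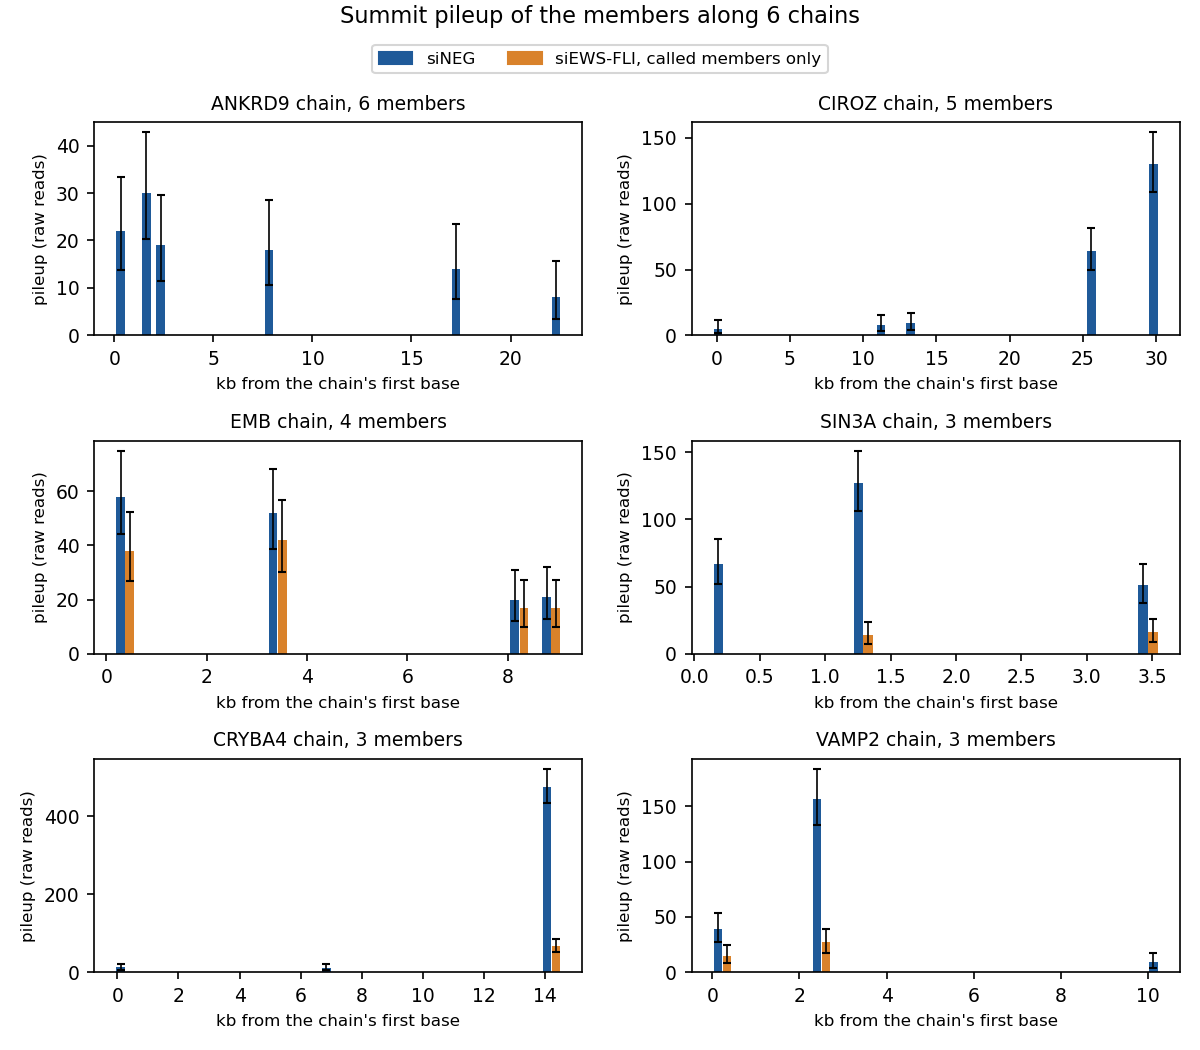
Summit pileup in raw reads (vertical) of the members of 6 chains against the distance in kb from the chain's first base (horizontal); blue bars are siNEG and orange bars, shifted to the right for sight, are siEWS-FLI at called members, with exact 95% Poisson intervals. In the CRYBA4 chain 476 of 501 reads stand at 1 member, the ANKRD9 and CIROZ chains have no orange bar, and in the EMB chain the intervals of the blue and the orange bar overlap at all 4 members.

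Of 60 members in the 18 chains over 100 kb from a protein-coding gene 15 were called, 25% (15.8 to 37.2), beside 5.59% of such distal intervals outside chains. Members of these chains had a median of 11 reads. The shares were not matched for siNEG pileup, which the share of calls follows. The calls were concentrated: 12 of these chains had no call over 36 members with a median of 6.5 reads, and 6 had 15 calls over 24 members with a median of 15 reads. In the chain 729 kb from EMB on chromosome 5 (49658275 to 49667275) the pileups were 58, 52, 20 and 21 with siNEG and 38, 42, 17 and 17 with siEWS-FLI. In that 178 kb from SHCBP1 on chromosome 16 (46390391 to 46400806) they were 22, 24 and 14 with siNEG against 21, 22 and 15, with 1 more member, of 11 reads, not called. In that 520 kb from LOC124905368 on chromosome 2 (89828539 to 89839816) they were 15, 29 and 27 against 17, 28 and 30. The first-ranked chain of all, 186 kb from LOC124903767 on chromosome 16 (34576269 to 34595258), had 7, 15, 13, 13, 12, 13 and 6 reads, and 2 neighbouring members, of 13 and 12 reads, were called with 11 and 10. The remaining pair of chains with a call lay nearest to KCNJ18, where 15, 9 and 14 siNEG reads stood against 20 and 9 at the first and last member, and to MATN1, where of 18, 113 and 24 reads the first alone was called, with 5. As background, the first 4 of these places lie in chromosome bands next to centromeres, where repeats and duplicated segments are common; how reads that fit several copies were placed is not known here, and its part in these values was not tested. A chain 82.4 kb from CWH43 on chromosome 4 (49144499 to 49155056), also beside a centromere and counted between genes, had 40, 50 and 60 reads with siNEG and 20, 64 and 66 with siEWS-FLI.

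The 4 chains at mitochondrial pseudogenes had 7 of 13 members called (53.8%, 29.1 to 76.8), beside 66.7% of 33 distal intervals over such pseudogenes outside chains. Of the 13 members only 11 lay over such a pseudogene themselves. The median ratio at the 7 called members was 0.780. In the chain nearest to TECRL on chromosome 4 the pileups were 44, 22 and 11 with siNEG and 39, 17 and 13 with siEWS-FLI. In that nearest to FAM174A on chromosome 5 they were 30, 19, 31 and 37, of which the second and the last were called with 16 and 20. Mitochondrial reads can be placed on such insertions; their part in these values was not tested. The chain nearest to PPIAL4F on chromosome 1 (144546331 to 144560981), with 2 of its members over variant U1 small nuclear RNA genes, had all 3 members called, with 40, 21 and 4 siNEG reads against 12, 8 and 4 with siEWS-FLI.

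The 11 lists, fixed with earlier results of these data known, held 182 genes once each, and 4 of them (2.2%) hosted a chain or were nearest to one, beside 0.881% of 19970 protein-coding genes. Genes reported as activated by EWS-FLI1 gave 2 of 34 and those reported next to GGAA microsatellites 2 of 17, in both cases PRKCB and VRK1. PRKCB, which encodes protein kinase C beta, hosted members of 16 (9.15 to 26.0), 9 (4.12 to 17.1) and 34 reads (23.5 to 47.5) on chromosome 16 (23857267 to 23867235), none called with siEWS-FLI. VRK1, a nuclear kinase gene, was the nearest gene, 326 kb away on chromosome 14, to members of 4, 72 (56.3 to 90.7) and 11 reads, none called. At the second, 14 siEWS-FLI reads or fewer could have gone uncalled, by the rough bound from the siNEG local background.

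Of 19 genes reported as repressed 1 was at a chain: TNC, which encodes the matrix protein tenascin C, was nearest to 2 chains on chromosome 9. The one 45 kb away had 11, 9 and 4 reads and the one 273 kb away 15, 4 and 36, none called. Of 17 core regulatory factors MYC alone was nearest to a chain, 149 kb away, with 5, 4 and 6 reads, none called, values at the low end of the list. Inside the span of that chain lay 1 siEWS-FLI interval that was on no member. None of 18 genes reported near super-enhancers in Ewing cells, 20 neural crest and neural, 16 mesenchymal and 20 adhesion and guidance genes hosted or neighboured a chain, nor did any of the 16 blood cell, 16 hepatocyte and 14 epithelial markers that served as background.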

How the data were processed

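Peaks were called separately in the 2 libraries, since each has a list of its own. The submitters' processing notes name hg38, MACS2 2.2.9.1, Bowtie2 2.4.5 and Trim Galore 0.6.6 without saying what each did, and the sources used here do not say whether a control library was used or duplicates were removed. Of each deposited line, 4 values were used: the fold enrichment at the summit (a linear ratio over local background), its −log10 p-value, its −log10 q-value and the summit position. Per the labels' protocols, libraries had 14 and then 20 cycles of PCR.

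Lines sharing an interval were merged on the strongest summit. The pileup was solved as the whole number that fits both the fold, with 1 added to pileup and to background, and the upper Poisson tail; it fitted 100% of merged intervals in each list (tolerance 0.001 in log10 p, in proportion above a −log10 p of 10). Where 2 solutions existed the one with a background at or above the library's own was kept. The solver, the chaining and the overlap were tested on simulated data. Genes were RefSeq GRCh38.p14. Named chains are the 20 first in rank (members, then covered bases, then summed fold), the 5 with most summed reads, the 5 with most calls, and those of listed genes; 1 chain that this rule names is not reported here, and others named were chosen after their values were seen. Members and lists were chosen with earlier results of these data known. Python 3.11.15 with scipy 1.17.1 was used. The planned search for GGAA repeats in members was limited to RefSeq promoter windows.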

Additional observations from a re-analysis of the deposited data

How the results depend on the processing

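The number of chains depends on the rule: against 171, it was 25 with a gap of 5 kb, 353 with 25 kb, 29 with at least 4 members and 73 with intervals wider than 200 bases alone. The share of members called, 14.3%, was 30.1% with the 5 kb gap, 19.7% with at least 4 members, 19.3% with wider intervals, 8.50% when 50% of both intervals had to overlap and 18.6% when a siEWS-FLI interval within 1 kb counted. Chains with no call, 69.6%, were 48%, 51.7% and 81.3% with the 5 kb gap, 4 members and the 50% overlap. The excess of members over other distal intervals, 4.63 points, was 16.1 with the 5 kb gap, 7.49 with 4 members and 1.07 in classes of pileup. Without the chains at tRNA genes, at mitochondrial pseudogenes and over 100 kb from a gene, an alternative chosen after seeing the data, the share called was 10.3% and the excess 1.65 points (−1.07 to 4.38), with the other distal intervals left as they were. The cause was not tested. The excess was above 0 under all 11 alternatives, though its interval took in 0 under the last 2 named. Only the alternative in classes of pileup compared members and other intervals of like pileup. All these intervals treat members as independent. No paired analysis was possible because there is 1 library in each group. With 430 of 553 members under 20 reads, the depth limits what a missing call shows.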

Other observations

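Chained by the same rule, the siEWS-FLI list gave 18 chains with 60 intervals from 4345 distal intervals, and 10 of the 18 overlapped a siNEG chain. The largest were the ones near CWH43 and EMB, with 5 intervals each and summed pileups of 228 and 143 reads. The chain near TMEM185B on chromosome 2, a transmembrane protein gene, had 3 siEWS-FLI intervals of 5 to 7 reads and no siNEG interval under any of them. Of 94 siEWS-FLI intervals inside siNEG chain spans, 10 lay on no member. For scale, the whole siEWS-FLI list held 6362 intervals, and 2541 of all siNEG intervals overlapped one of them. The share of all siEWS-FLI intervals without a siNEG interval is not given here, so neither case is shown to be unusual.

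Among called members, siEWS-FLI reads were higher by the widest ratio, 2.29, in the chain of NAGS on chromosome 17, at a member inside PYY, with 7 and 16 reads (2.81 to 14.4 and 9.15 to 26.0). A member at LINC01778, in the chain nearest to SDC3 on chromosome 1, had 12 (6.2 to 21) and 22 reads (13.8 to 33.3), and one near the start of chromosome 18 had 24 (15.4 to 35.7) and 40 (28.6 to 54.5).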
